A study of Mus musculus with 24 samples.

Results

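The C-type lectin (Clec) and killer cell lectin-like receptor (Klr) genes of the mouse were chosen by name, as every protein-coding gene of GENCODE vM21 whose symbol starts with Clec or Klr. There were 56 of them, 30 Clec and 26 Klr, among 21938 protein-coding genes, and 48 lay on chromosome 6. Accessible chromatin around them was measured by ATAC-seq, in which the transposase Tn5 cuts open DNA, in 24 libraries from 12 populations with 2 libraries each. Monocytes (MON) and neutrophils (NEU) came from peripheral blood. Immature megakaryocytes (iMK), megakaryocyte colony-forming cells (CFUMK), erythroid colony-forming cells (CFUE), erythroblasts (ERY), progenitors of granulocytes and monocytes (GMP), progenitors of megakaryocytes and red cells (MEP), common myeloid progenitors (CMP) and LSK cells (Lin-, Sca1+, cKit+) came from bone marrow. These 10 primary populations were from young adult male C57BL6 mice, for which no mutation or treatment is named. The other populations were cultured lines: G1E-ER4+E2, a single clone in which estradiol activates a GATA1-ER hybrid protein, and its parent G1E, an erythroid line from embryonic stem cells without Gata1. Both lines lack the endogenous Gata1 gene, and their strain is not named.

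The peak lists held 52720 to 230877 peaks, with 52720 to 70306 in the cell line libraries and 84341 to 230877 in the primary ones. The study describes its replicates as biological, taken on separate days or as separately processed aliquots of the same mice, and does not say which holds for each population here. The p-values measure the spread between these libraries, which may be that between aliquots. Library numbers were 842 to 856 for most marrow populations and 1197 to 1200 for MON and NEU, so a difference of MON and NEU from GMP and a difference between those sets of libraries cannot be told apart. The LSK libraries, numbered 987 and 1196, had promoter peaks at 30 and 21 of the 56 genes.

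C-type lectin receptors carry a lectin-like fold that binds sugars, lipids, proteins or other receptors. Those of the Dectin-2 and Dectin-1 clusters are known from monocytes, macrophages, dendritic cells and neutrophils, where they sense fungi, mycobacteria and dead cells. They signal through the kinase Syk or through inhibitory phosphatases. The killer cell lectin-like receptors (Ly49, NKG2, CD94 and Nkrp1 proteins) are known above all from natural killer (NK) cells, which use them to read class I molecules, stress ligands and Clec2 proteins on other cells. In the mouse 33 of the 56 genes stand side by side in the natural killer gene complex, chr6:128609227-130386874 (mm10). Windows of neighbouring genes overlap and share peaks. The Ly49 and Klrc genes are close copies, reads were 30 bases long, and the study describes its pipelines in general as keeping reads with several matches, without stating this for the ATAC-seq lists in particular. Values of single Ly49 and Klrc genes are therefore uncertain. The same may hold for Klrb1c and Klrb1b, around which elements recur at similar spacing.

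Promoter peaks of 10 members are shown because their calls differed between populations in the results that follow. Each is the promoter peak with the highest percentile over the 24 lists, where the percentile ranks the score of a peak among all peaks of its own list and 100 is the highest. A percentile depends on the length of its list, so percentiles from lists of unlike length compare only roughly. Each is 150 bases long, read from the RefSeq sequence of GRCm38.p6 (mm10) on the strand of its gene, 5' to 3'. Capitals mark matches to 5 motifs on either strand, so a motif may appear as its reverse complement. GAGGAA is the core of an ETS site of the kind bound by PU.1, a factor of myeloid cells. RUNX factors are known to bind TGTGGT, and C/EBP factors bind sites such as TTGCNNAA. The AP-1 motif searched was TGANTCA. For GATA factors the search used AGATAA.

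The first set holds myeloid receptors. The Clec4a2 peak is at chr6:123123213-123123362 (plus strand), centred 29 bp before a start. The Clec4e peak is at chr6:123289883-123290032 (minus strand), 87 bp before a start. The Clec12a peak is at chr6:129349982-129350131 (plus strand), 92 bp after a start, and the Clec5a peak at chr6:40585768-40585917 (minus strand), 21 bp before a start.
Clec4a2: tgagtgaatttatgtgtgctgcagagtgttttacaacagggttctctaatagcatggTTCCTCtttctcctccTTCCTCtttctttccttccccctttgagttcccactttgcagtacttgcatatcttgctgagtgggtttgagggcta
Clec4e: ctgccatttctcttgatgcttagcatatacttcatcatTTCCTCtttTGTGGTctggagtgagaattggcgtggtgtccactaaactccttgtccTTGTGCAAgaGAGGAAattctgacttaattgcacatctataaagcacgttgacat
Clec12a: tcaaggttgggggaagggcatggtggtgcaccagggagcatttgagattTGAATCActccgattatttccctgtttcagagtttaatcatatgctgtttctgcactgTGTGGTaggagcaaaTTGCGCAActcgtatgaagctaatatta
Clec5a: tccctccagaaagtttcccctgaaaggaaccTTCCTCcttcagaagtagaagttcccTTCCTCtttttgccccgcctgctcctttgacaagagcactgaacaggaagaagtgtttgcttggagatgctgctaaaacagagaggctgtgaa

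The neighbours Clec1b and Clec1a are shown because they were called in different populations. Their peaks are at chr6:129403445-129403594 (plus strand), 31 bp before a start, and at chr6:129451842-129451991 (minus strand), 57 bp before a start.
Clec1b: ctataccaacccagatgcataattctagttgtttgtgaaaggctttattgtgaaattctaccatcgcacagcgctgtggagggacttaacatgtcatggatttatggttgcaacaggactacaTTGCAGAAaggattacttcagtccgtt
Clec1a: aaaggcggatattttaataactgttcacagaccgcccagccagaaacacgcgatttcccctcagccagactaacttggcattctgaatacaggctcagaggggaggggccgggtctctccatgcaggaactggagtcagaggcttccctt

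The last set belongs to the NK receptor system. Clec2d has its peak at chr6:129180485-129180634 (plus strand), 56 bp before a start, and Klrd1 at chr6:129591635-129591784 (plus strand), 73 bp before a start. Klrk1 has its peak at chr6:129623859-129624008 (minus strand), 69 bp before a start, and Klra2 at chr6:131247320-131247469 (minus strand), 32 bp before a start.
Clec2d: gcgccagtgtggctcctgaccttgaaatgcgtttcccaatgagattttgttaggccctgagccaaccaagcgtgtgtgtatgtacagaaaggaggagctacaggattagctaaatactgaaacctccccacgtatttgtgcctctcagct
Klrd1: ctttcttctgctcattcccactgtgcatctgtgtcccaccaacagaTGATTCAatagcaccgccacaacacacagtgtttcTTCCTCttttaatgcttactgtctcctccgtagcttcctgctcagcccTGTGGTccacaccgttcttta
Klrk1: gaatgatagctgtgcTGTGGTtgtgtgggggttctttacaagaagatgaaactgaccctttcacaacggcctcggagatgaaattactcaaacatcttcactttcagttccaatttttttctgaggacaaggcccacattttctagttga
Klra2: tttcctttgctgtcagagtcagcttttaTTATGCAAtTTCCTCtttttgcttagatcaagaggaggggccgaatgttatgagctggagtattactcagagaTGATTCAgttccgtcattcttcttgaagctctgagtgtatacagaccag

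GAGGAA stands at 2 places in each of the Clec4a2, Clec4e and Clec5a peaks, and no motif of the 5 is present in the Clec1a and Clec2d peaks. Over the 44 members with a promoter peak in any library, GAGGAA was in the highest-ranking peak of 25 (56.8%), against 16.6% of the 17372 genes with such a peak. The shares were 25.0% against 8.57% for the RUNX motif, 18.2% against 4.5% for C/EBP, 15.9% against 3.2% for AP-1 and 6.82% against 3.16% for GATA. These are matches of letters in a window of 150 bases and not measured binding.

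A promoter was counted as called in a population where a peak came within 500 bp of an annotated start in both libraries. Members were called most often in GMP (32 of 56, against 65.2% of all genes), iMK (31, against 60.7%), CFUMK (31, against 64.2%) and CMP (30, against 64.2%). LSK had 21 members called, against 61.9% of all genes, MON had 20, against 52.6%, and NEU had 18, against 51.4%. CFUE had 6 members called, against 48.3% of all genes, and ERY had 7, against 46.9%. MEP had 12, against 58.1%. The cell lines had 4 in G1E-ER4+E2, against 44.7%, and 3 in G1E, against 41.8%. As shares, 57.1% of the members were called in GMP, 10.7% in CFUE and 21.4% in MEP.

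**Figure D1:**
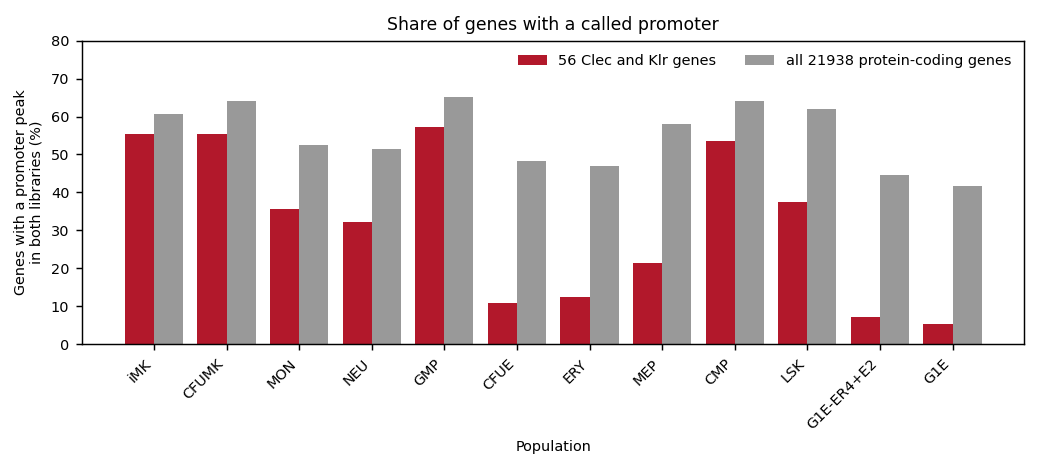
Share of genes (%) with a promoter peak in both libraries of each of the 12 populations, for the 56 Clec and Klr genes (red) and all 21938 protein-coding genes (grey). The red bar is at 57.1% in GMP and 10.7% in CFUE, where the grey bar is at 65.2% and 48.3%.

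Fewer of the members called in CMP were also called in MEP than in GMP. Of the 30 members called in CMP, 28 were called in GMP (93.3%, against 96.8% of all genes called in CMP), while 12 were called in MEP (40.0%, against 88.8% of all genes). Of the 12 called in MEP, 11 were also called in CFUMK (91.7%, against 98.8% of all genes), where 20 further members were called. CFUE and ERY each shared 5 of the 12 (41.7%, against 81.1% and 79.2% of all genes called in MEP). Of the 32 members called in GMP, 20 were called in MON (62.5%, against 79.6% of all genes) and 17 in NEU (53.1%, against 78.0%).

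**Figure D2:**
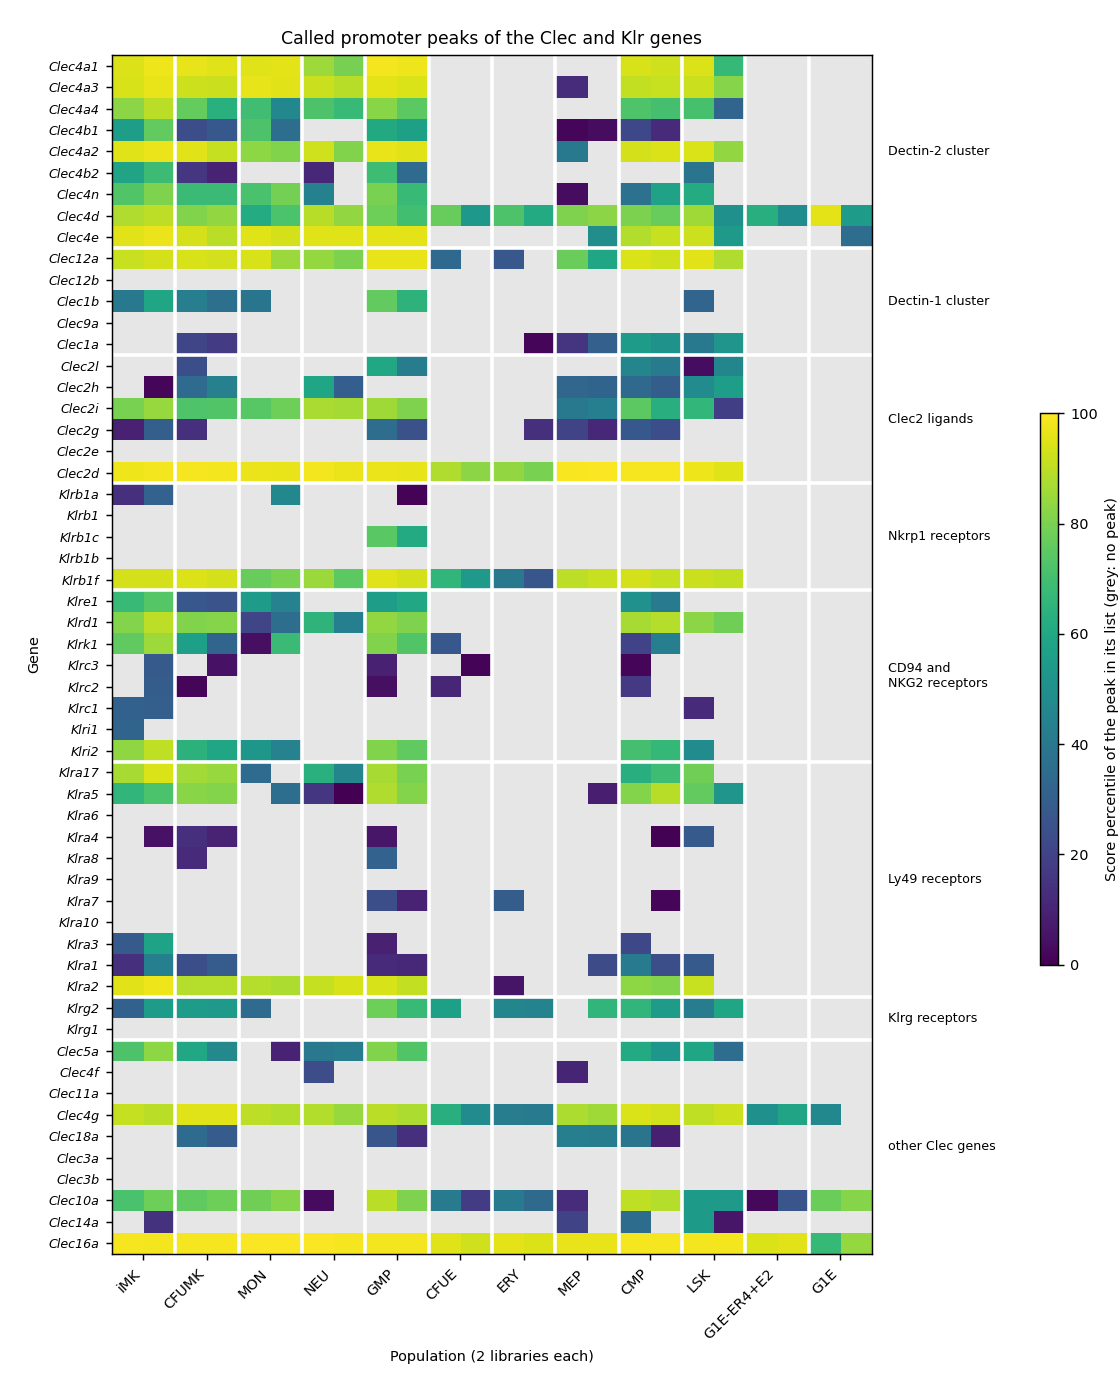
Promoter peaks of the 56 genes (rows, by role) in the 24 libraries (columns, 2 per population), coloured by the percentile of the best promoter peak by score within its own list (100 is the highest, grey is no peak). Clec4d and Clec16a have a peak in all 24 libraries, Clec2d and Klrb1f in the 20 primary libraries and no cell line library, and 12 genes have none.

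The promoters of 5 members (Clec4d, Clec2d, Klrb1f, Clec4g and Clec16a) were called in all 10 primary populations, 8.93% of the members against 42.4% of all genes. Clec4d is a Dectin-2 cluster receptor for mycobacterial glycolipid, and Clec16a, not itself a surface lectin receptor, acts in mitophagy. Clec2d encodes the ligand of the inhibitory receptor Nkrp1b. Its peak had score percentiles of 88.3, 82.6, 83.7 and 79.7 in CFUE and ERY, against 99.0 and 99.3 in MEP. Klrb1f, an Nkrp1 receptor gene, had percentiles of 66.0, 53.8, 40.5 and 26.8 in CFUE and ERY, against 89.9 and 91.5 in MEP. For both genes all 4 maturing erythroid libraries lay below both MEP libraries. The CFUE and ERY lists were shorter (97760 to 133674 peaks, against 165774 and 160409 in MEP), which bears on these percentiles. The antisense gene Gm44000 has a start beside that of Klrb1f and the pseudogene Clec2j has one beside that of Clec2h, so those peaks cannot be assigned to 1 gene.

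In 20 members (35.7%, against 11.3% of all genes) the promoter was called in GMP, CFUMK and iMK and in neither CFUE nor ERY. This grouping was made with the calls known and is a description. It holds 8 of the 9 Dectin-2 cluster genes, Clec12a, Clec1b, Clec2i and Clec5a, 4 CD94 and NKG2 genes (Klrd1, Klre1, Klri2 and Klrk1) and 4 Ly49 genes (Klra1, Klra2, Klra5 and Klra17). GAGGAA was in the promoter peak of 13 of these 20 (65.0%), against 24.6% of the 2474 genes with the same calls. In 17 members no primary population was called, 30.4% against 29.8% of all genes. Among them were Klrg1, an inhibitory receptor of mature NK and T cells, Clec9a, the dead-cell receptor of cross-presenting dendritic cells, Clec4f, known from Kupffer cells of the liver, Clec12b, Klrb1, Klrb1b, Clec3b and the secreted growth factor Clec11a.

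In the Dectin-2 cluster all 9 promoters were called in iMK, CFUMK and GMP, 8 in MON and CMP, and 6 in NEU and LSK. MEP had 2 called (Clec4d and Clec4b1), and CFUE, ERY and both lines had Clec4d alone. Clec4e, known as Mincle, a receptor for mycobacterial cord factor and dead cells, had percentiles of 95.5 and 97.0 in iMK, 95.2 and 93.6 in MON, 95.1 and 95.1 in NEU and 96.0 and 95.7 in GMP. In MEP it had a peak in replicate 2, at percentile 49.5, and it had none in the CFUE and ERY libraries. The inhibitory receptor Clec4a2 had percentiles of 82.9 and 81.1 in MON, 92.7 and 80.9 in NEU and 96.8 and 95.6 in GMP. Clec4n, which encodes Dectin-2, had 71.1 and 79.3 in MON and 79.7 and 67.6 in GMP, and in NEU a peak in replicate 1 at 44.0.

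In the Dectin-1 cluster Clec12a, an inhibitory receptor for uric acid crystals, was called in 8 primary populations, with percentiles of 94.0 and 85.1 in MON and 96.5 and 96.6 in GMP. CFUE and ERY had a Clec12a peak in 1 library each, at 34.1 and 27.3. Clec1b, which encodes the platelet receptor CLEC-2, was called in iMK (40.3 and 59.2), CFUMK (42.7 and 37.0) and GMP (75.9 and 64.7). Clec1a was called in CFUMK (21.0 and 17.3), MEP (15.5 and 30.6), CMP (54.9 and 51.1) and LSK (40.4 and 52.3), so that CFUMK was the population they shared. Clec7a, which encodes Dectin-1, is a polymorphic pseudogene in this annotation and therefore no member. It had a peak in both libraries of iMK, CFUMK, MON, NEU, GMP and CMP and in none of MEP, CFUE, ERY and the lines.

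Of the 6 Clec2 genes, 5 were called in CMP, 4 in GMP, MEP and LSK, 3 in iMK, CFUMK and NEU, 2 in MON, and Clec2d alone in CFUE and ERY. Clec2i, a Clec2 ligand gene, had percentiles of 87.3 and 86.5 in NEU, 74.1 and 78.0 in MON and 85.7 and 80.7 in GMP, and no peak in the CFUE and ERY libraries. Of the 5 Nkrp1 genes beside Klrb1f, Klrb1c, which encodes the NK cell marker NK1.1, was called in GMP alone (74.6 and 61.3), and Klrb1a in iMK alone (13.6 and 31.4).

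Of the 8 CD94 and NKG2 genes, 5 were called in iMK, 4 in CFUMK, MON, GMP and CMP, 1 in NEU and LSK, and 0 in MEP, CFUE, ERY and the lines. Klrd1, the CD94 chain that pairs with NKG2 proteins, was the 1 in NEU (64.9 and 43.3) and LSK (82.7 and 78.2), and had percentiles of 20.9 and 36.1 in MON, against 83.9 and 80.8 in GMP. Klrk1 (NKG2D), the activating receptor for stress ligands, had 75.6 and 85.5 in iMK, against 56.4 and 32.5 in CFUMK. Klrc1, which encodes the inhibitory chain NKG2A, was called in iMK alone (31.0 and 30.4). Of the 11 Ly49 genes, 5 were called in iMK, CFUMK and GMP, 4 in CMP, 3 in NEU, 1 in MON and LSK, and 0 in MEP, CFUE, ERY and the lines. Klra2, a Ly49 gene known from myeloid cells of the mouse, had percentiles of 95.5 and 97.7 in iMK, 88.9 and 87.9 in MON, 91.1 and 94.1 in NEU and 94.0 and 90.6 in GMP. Klra8 (Ly49H), the receptor for a mouse cytomegalovirus protein, had a peak in 1 CFUMK and 1 GMP library.

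Among the other Clec genes, Clec5a, a receptor of myeloid cells that signals through DAP12, was called in iMK, CFUMK, NEU, GMP, CMP and LSK. Clec10a, a galactose-binding receptor of macrophages and dendritic cells, was called in 8 primary populations and both lines, with percentiles of 2.0 and 26.3 in G1E-ER4+E2, against 77.7 and 81.7 in G1E. Clec4g, known from sinusoidal endothelium, had 62.7, 48.1, 42.4 and 40.8 in CFUE and ERY, against 87.6 and 85.6 in MEP. Clec14a, known from endothelium, was called in LSK alone (54.5 and 5.9).

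Peaks in each gene and 20 kb on each side were then counted and compared with limma, on log2 of the number per 100000 called peaks, over the 17047 genes whose mean reached 3 peaks. Of the 56 members 47 passed that filter, and Clec4a4, Clec4b1, Clec4f, Clec14a, Klrb1, Klra4, Klra7, Klra8 and Klra9 did not. Adjusted p-values are limma's with Benjamini-Hochberg adjustment over all tested genes. Ratios are of peaks per called peak, with an exact 95% interval that covers counting error only. Since all 24 libraries share 1 estimate of the spread, a gene with few peaks can pass while its interval includes 1.

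**Figure D3:**
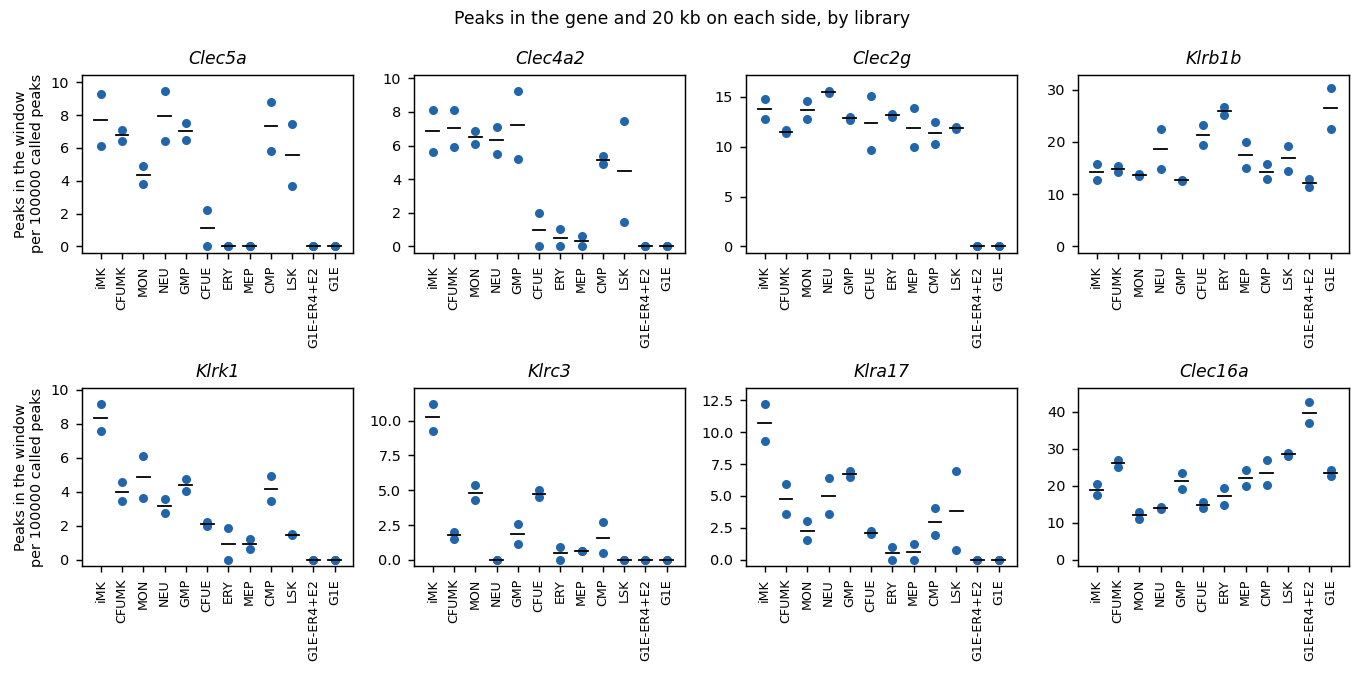
Peaks in the gene and 20 kb on each side per 100000 called peaks (y axis) for 8 members, in each library (points) and as the mean of 2 libraries (lines) of the 12 populations. Clec5a and Clec4a2 are at or near 0 in ERY and MEP, Klrc3 is highest in iMK, and Clec2g is at 0 in both lines and between 9.73 and 15.7 elsewhere.

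GMP and MEP, the progenitors below CMP, differed at 7 of the 47 members, all higher in GMP (over all genes 2.36% were higher) and 0 lower (4.33%). At an unadjusted p under 0.05 limma gave 11 higher and 1 lower. Clec5a had 15 and 13 peaks in GMP, against 0 and 0 in MEP, at least 7.54-fold higher per called peak at a floor of 3 peaks over both MEP libraries (adjusted p = 9.54e-05). Clec4a2 had 12 and 16 in GMP, against 1 and 0 in MEP (ratio 22.6, 3.74 to 926, adjusted p = 0.00222). Another Dectin-2 cluster gene, Clec4b2, had 14 and 10, against 1 and 1 (ratio 9.70, 2.41 to 84.7, adjusted p = 0.00602). In none of the 7 did the GMP and MEP libraries overlap, which also held for members that were not called, such as Klre1 and Klri1. The Ly49 gene Klra17 had 15 and 12 peaks in GMP, against 0 and 2 in MEP (ratio 10.9, 2.74 to 94.7, adjusted p = 0.00823), and Klra5 had 9 and 14, against 1 and 1 (ratio 9.30, 2.30 to 81.3, adjusted p = 0.00809). Klrk1 had 11 and 7 in GMP, against 2 and 1 in MEP (ratio 4.85, 1.42 to 25.7, adjusted p = 0.0342). Klri2, whose product pairs with that of Klre1, had 13 and 11, against 4 and 3 (ratio 2.77, 1.16 to 7.62, adjusted p = 0.0315). The median log2 difference was 0.24 over the 47 members and -0.14 over all genes tested. Scaling by a trimmed mean of log ratios (TMM), which brought the median of all genes to 0.015, gave 10 members higher and 0 lower, and 54.7% of all called genes were then higher in place of 35.3%. Clec5a was called without any 1 of the 4 libraries, while each omission left 2 or 3 members called. Klrk1 and Klri2 lost their calls in each case, Klra17 without either GMP library or MEP replicate 1, and Klra5 without GMP replicate 2 or either MEP library. Clec4a2 lost its call without GMP replicate 2 or MEP replicate 2, and Clec4b2 without GMP replicate 1 or MEP replicate 2.

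CFUE and ERY were compared with MEP for erythroid maturation. The mean of the 2 populations was used, so opposite differences of CFUE and ERY from MEP can cancel, and CFUE was not compared with ERY. Klri1, named after its values were seen, had 13 and 4 peaks in CFUE and 0 and 0 in ERY, against 7 and 5 in MEP. Of the 47 members, 6 were lower in CFUE and ERY (8.16% of all genes were) and 2 higher (7.23%). The 6 were the ligand gene Clec2i and 5 Klr genes. The median log2 difference was 0.05 over the members and 0.18 over all genes. Clec2i had 1, 2, 1 and 0 peaks in CFUE and ERY, against 9 and 6 in MEP (ratio 0.198, 0.0479 to 0.623, log2 difference -1.84, SE 0.35, adjusted p = 0.000637). Klrd1 had 1, 1, 2 and 0, against 7 and 5 in MEP (ratio 0.248, 0.0583 to 0.818, adjusted p = 0.00594). Klrg1 had 2, 2, 2 and 2, against 14 and 8 in MEP (ratio 0.271, 0.104 to 0.631, adjusted p = 0.0142). Of the Ly49 genes, Klra3 had 1, 1, 1 and 1 in CFUE and ERY, against 8 and 7 in MEP (adjusted p = 0.00632), and the libraries of the groups did not overlap. Klra1 had 2, 2, 2 and 0, against 7 and 7 in MEP (adjusted p = 0.0335), and Klra6 had 2, 0, 0 and 0, against 5 and 3 (ratio 0.186, 0.0192 to 0.932, adjusted p = 0.0217). Of those that rose, Clec4b2 had 7, 4, 12 and 4 peaks in CFUE and ERY, against 1 and 1 in MEP (ratio 10.0, 2.52 to 87.1, adjusted p = 0.000933). No library of these 3 populations had a peak at the Clec4b2 promoter, so the peaks counted lay elsewhere in its window. Clec10a had 12, 4, 9 and 9, against 3 and 3 in MEP (ratio 4.21, 1.75 to 12.3, adjusted p = 0.0370). TMM scaling (median of all genes -0.02 in place of 0.18) gave 9 members lower and 1 higher (Clec10a, at 1.45, was no longer called), and 22.1% of all called genes were then higher in place of 47%. Clec2i and Clec4b2 were called without any 1 of the 6 libraries, and without MEP replicate 1 they were the 2 members called, in place of 8. Klra6 also lost its call without MEP replicate 2 or CFUE replicate 2, and Klra1 without these or ERY replicate 2. Clec10a kept its call without CFUE replicate 2 alone. With windows of 50 kb Clec2i and Klrd1 were no longer lower.

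MON and NEU were compared with GMP. Of the 47 members, 2 were higher in MON and NEU (8.59% of all genes were) and 3 lower (7.87%), with a median log2 difference of -0.05 over the members and 0.16 over all genes. The Dectin-2 cluster gene Clec4a1 had 16 and 17 peaks in MON and 7 and 7 in NEU, against 6 and 8 in GMP (ratio 2.78, 1.50 to 5.47, log2 difference 1.23, SE 0.41, adjusted p = 0.0396). Per called peak all 4 mature libraries lay above both GMP libraries. Clec11a had 5, 5, 5 and 4 peaks in MON and NEU, against 2 and 5 in GMP (log2 difference 0.99, SE 0.33, adjusted p = 0.0418). The Ly49 gene Klra10 had 0 peaks in the 4 MON and NEU libraries, against 13 and 6 in GMP, at least 7.65-fold lower at a floor of 3 peaks over the 4 libraries (adjusted p = 0.000764). Klrg2 had 6, 4, 1 and 1 in MON and NEU, against 13 and 9 in GMP (log2 difference -1.20, SE 0.37, adjusted p = 0.0283). Clec16a had 18, 17, 15 and 12, against 54 and 33 (log2 difference -0.68, SE 0.17, adjusted p = 0.0107). TMM scaling (median of all genes -0.02 in place of 0.16) gave 0 members higher (Clec4a1 at 1.06 and Clec11a at 0.85 were no longer called) and 5 lower, and 32.6% of all called genes were then higher in place of 52.2%. None of the members was called without GMP replicate 1 (0 of 46 tested). The count was 2 without MON replicate 2, 3 without GMP replicate 2 or NEU replicate 2, and 10 without NEU replicate 1. Klra10 and Clec16a lost their calls without GMP replicate 1 alone. Of the 6 omissions, Clec4a1 kept its call only without NEU replicate 1, and Clec11a only without GMP replicate 2 or NEU replicate 1. Klrg2 also lost its call without GMP replicate 2 or MON replicate 2.

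Between the mature myeloid cells, 3 of the 47 members were higher in MON than in NEU (2.99% of all genes were) and 0 lower (4.96%). At an unadjusted p under 0.05 limma gave 8 higher and 2 lower. All 3 were Klr genes. Klrc3, which encodes an NKG2 chain, had 7 and 7 peaks in MON, against 0 and 0 in NEU, at least 3.06-fold higher at a floor of 3 peaks over both NEU libraries (adjusted p = 0.00240). Klrg1 had 6 and 9 in MON, against 1 and 0 in NEU (ratio 9.84, 1.51 to 414, adjusted p = 0.00372). Klre1 had 12 and 8, against 3 and 2 (ratio 2.62, 0.955 to 8.94, adjusted p = 0.0226). Of 17 T and NK cell markers, 12 and 12 had a promoter peak in the MON libraries, against 9 and 8 in the NEU libraries. Ncr1, Cd7 and Gzmb had one in both MON libraries and in neither NEU library, Lat had one in both NEU libraries and in neither MON library, and Cd3e, Cd3g, Tbx21 and Gzma had none in MON or NEU. Of 8 B cell markers 5 and 4 had one in MON, against 8 and 8 in NEU. The part of other cells in these differences was not tested. The median log2 difference was 0.11 over the members and -0.18 over all genes. TMM scaling (median of all genes 0.03 in place of -0.18) gave 5 members higher and 0 lower, and 65.3% of all called genes were then higher in place of 37.6%. Klrc3 was called without any 1 of the 4 libraries. Without MON replicate 2 or NEU replicate 2 it was the 1 member called, and without NEU replicate 1 there were 6. Klre1 also lost its call without MON replicate 1.

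iMK and CFUMK were compared for megakaryocyte maturation. Of the 47 members, 0 were higher in iMK (0.00587% of all genes were) and 0 lower (0.34%). At an unadjusted p under 0.05 limma gave 2 higher and 1 lower, and the median log2 difference was 0.14 over the members and -0.05 over all genes. The 2 were Klrc3, with 16 and 22 peaks in iMK, against 3 and 4 in CFUMK (ratio 5.89, 2.60 to 15.6, log2 difference 2.16, SE 0.55, adjusted p = 0.0838), and Klrc2, with 17 and 22, against 7 and 5 (ratio 3.53, 1.81 to 7.40, adjusted p = 0.427). These genes and their neighbours Klrk1 and Klrc1 are named after their values were seen. Klrk1 had 13 and 18 in iMK, against 7 and 9 in CFUMK, and Klrc1 had 9 and 12, against 6 and 3. In none of the 4, whose windows overlap, did the libraries overlap. This also held for members with little difference, such as Clec12a (ratio 1.085). Klrc3 passed with no filter on low numbers (adjusted p = 0.0347) and with neither trend nor robust variance in limma (adjusted p = 0.0178), and over its other alternatives the adjusted p was 0.0837 to 0.825. Of the T and NK cell markers 14 and 14 of 17 had a promoter peak in iMK, against 10 and 8 in CFUMK, and Ncr1, Il2rb and Cd3d had one in both iMK libraries and in neither CFUMK library. Of 8 megakaryocyte markers 3 and 4 had one in iMK, against 5 and 6 in CFUMK, and of 8 monocyte and macrophage markers 8 and 8, against 7 and 7. The part of other cells in the iMK values was not tested. Clec1b had 11 and 12 peaks in iMK, against 14 and 9 in CFUMK, and the libraries overlapped.

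The cell lines were compared for the restoration of GATA1 activity. They also differ in clone and estradiol treatment, and these differences cannot be told apart. Of the 47 members, 11 were higher in G1E-ER4+E2 (11.5% of all genes were) and 1 lower (4.95%). The median log2 difference was 0.0 over the members and 0.004 over all genes. Most of the 47 members had 0 peaks in all 4 cell line libraries and passed the filter through the primary libraries. Their difference is fixed at 0, which sets the median of the members, and they could not be called in either direction. Most of the 11 rest on few peaks, and for Klrd1 and Clec3b a call kept without 1 library can rest on 1 peak. Clec1a, Clec1b and Clec9a share their peaks, 2 and 2 in G1E-ER4+E2, against 0 and 0 in G1E, at least 1.11-fold higher at a floor of 3 peaks (for Clec1b adjusted p = 7.64e-06). Klrd1 had 1 and 2, against 0 and 0 in G1E (adjusted p = 0.00147), and Clec3b 1 and 1, against 0 and 0 (adjusted p = 0.00405). Klrg2 had 2 and 3, against 0 and 1 (ratio 4.17, 0.467 to 197, adjusted p = 0.00419), and Clec4g 2 and 2, against 1 and 0 (ratio 3.34, 0.330 to 164, adjusted p = 0.0423). Clec2l had 2 and 6 in G1E-ER4+E2, against 0 and 1 in G1E (ratio 6.67, 0.895 to 296, adjusted p = 0.00105), and Klre1 3 and 6, against 1 and 2 (ratio 2.50, 0.625 to 14.4, adjusted p = 0.0126). Clec18a had 7 and 7, against 2 and 3 (log2 difference 1.13, SE 0.32, adjusted p = 0.0139), and Clec16a 23 and 30, against 12 and 14 (log2 difference 0.74, SE 0.20, adjusted p = 0.0102). The Nkrp1 receptor gene Klrb1b was lower, with 8 and 8 peaks in G1E-ER4+E2, against 16 and 13 in G1E (ratio 0.460, 0.234 to 0.876, log2 difference -1.07, SE 0.23, adjusted p = 0.00134). Klrb1b, Klrd1, Clec3b, Clec1a, Clec1b and Clec9a were called without any 1 of the 4 libraries. Without G1E replicate 1, 7 members were called in place of 12, and Klrg2, Clec2l, Klre1, Clec18a and Clec16a lost their calls. Klre1 and Clec16a also lost theirs without G1E-ER4+E2 replicate 2, Clec18a without G1E-ER4+E2 replicate 1, and Clec4g without any 1 library other than G1E replicate 1.

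In the full lists the cell lines had the most members with no peak in the window. In 33 of 56 members (58.9%) all 4 cell line libraries had 0 peaks, against 28.4% of all genes. Among genes with a mean of 3 or more peaks over the primary libraries these were 29 of 52 members (55.8%), against 13.4% of genes. The 33 were all 11 Ly49 genes, 6 of 8 CD94 and NKG2 genes, 5 of 6 Clec2 genes, 5 of 9 Dectin-2 cluster genes, 3 of 5 Nkrp1 genes and 3 of 10 other Clec genes. Clec2g, named after its values were seen, had 13, 15, 14 and 13 peaks in CFUE and ERY, 13 to 30 over the primary libraries, and 0 in each cell line library. The lists differ in length, and at an equal number of 52720 peaks 58.9% of members had no peak in both G1E-ER4+E2 libraries and 71.4% in both G1E libraries, against 33.6% and 34.8% of all genes. At that number CFUE and ERY each had 58.9% of members without a peak, against 36.3% and 35.1% of all genes. This was the same share of members as in G1E-ER4+E2, so at an equal number only G1E lay above the primary erythroid populations.

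Over the natural killer gene complex, 1.78 Mb long, the G1E-ER4+E2 libraries had 57.7 and 52.6 peaks per 100000 called peaks and the G1E libraries 60.7 and 65.5, against 114.6 to 191.7 in the primary libraries. The iMK libraries had the highest values, 191.7 and 183.4. The longest stretch without a peak was 804.9 and 804.8 kb in G1E-ER4+E2 and 827.4 and 818.1 kb in G1E, in each case up to the end of the complex, with 17 members inside in G1E-ER4+E2 and 18 in G1E. In the primary libraries it ranged between 69.8 kb in iMK replicate 2 and 349.8 kb in ERY replicate 2. These stretches come from the full lists, and a list with fewer peaks can leave longer ones. The cell line libraries had 32 to 38 peaks in the complex, against 112 to 360 in the primary libraries. The stretches were not computed at an equal number of peaks. The strain of the lines is not named, and whether they carry a deletion or sequence difference from the reference in the complex was not tested.

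**Figure D4:**
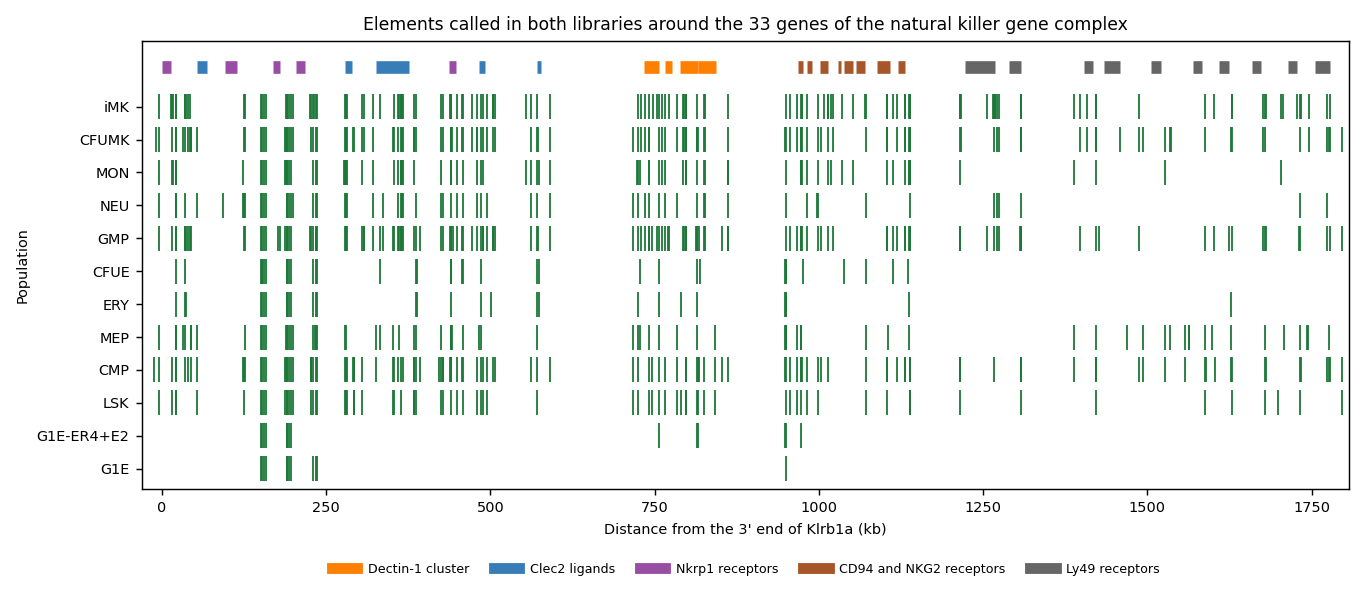
Elements (peaks called in both libraries of a population, green) in the windows of the 33 genes of the natural killer gene complex, by distance from the 3' end of Klrb1a (x axis, kb) and population (rows), with genes at the top coloured by role. The lines have elements around the Nkrp1 genes Klrb1c and Klrb1b and none around the other Nkrp1 genes. Around the Dectin-1 genes G1E has 0 and G1E-ER4+E2 has 3, and around the CD94 and NKG2 genes G1E has 1 and G1E-ER4+E2 has 3. The lines have none over the Ly49 genes (stretches outside the windows are blank in all rows).

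Peaks called in both libraries of a population were merged over the 12 populations into 207525 elements, of which 441 (0.213%) lay in the 26 blocks formed by the windows of the members, 2.72 Mb in all. CFUMK had 274 of the 441, GMP 263 and iMK 260, while CFUE had 71, ERY 66, G1E-ER4+E2 57 and G1E 37. As a share of all elements of a population, MON (0.272%), iMK (0.266%) and NEU (0.262%) were highest and G1E (0.133%) lowest. Of the 441 elements 16 (3.63%) were shared by all 12 populations, against 5.10% of all elements, and 111 (25.2%) were found in 1 population, against 30.0%.

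The blocks differed in how widely their elements were shared. The Klrb1c and Klrb1b block held 24 elements, of which 8 were shared by all 12 populations, although neither gene had a promoter called outside GMP. Those starting at chr6:128759964, 128760688, 128763703 and 128766772 were followed at similar spacing by those starting at 128798752, 128799454, 128802752 and 128805100. Whether reads of copied sequence were counted at both places was not tested, so the 8 may not be independent sites. Elements starting at 128838269, 128842944 and 128845351 were found in every population except G1E-ER4+E2. They lie in the window of Klrb1b, which was lower in G1E-ER4+E2 than in G1E. The 5 Ly49 blocks from Klra17 to Klra1 held 14, 8, 5, 15 and 15 elements, with none shared by all primary populations and none in either line. The Clec5a block held 12 elements, all of them found in iMK, 11 in CFUMK, 3 in MON, 5 in NEU, 11 in GMP and 0 in CFUE, ERY, MEP and the lines. In the block from Klre1 to Klri2, 27 of 38 elements were found in iMK, 21 in CFUMK, 17 in MON, 6 in NEU and 20 in GMP. In the Dectin-2 block of 9 genes, 41 of 63 elements were found in iMK, 43 in CFUMK, 27 in MON, 22 in NEU, 41 in GMP, 10 in CFUE, 11 in ERY and 17 in MEP.

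A list of 30 adaptors, kinases, phosphatases and ligands of these receptors was described in the same way, and all 30 were tested. Promoters called in both libraries were 27 (90%, against 65.2% of all genes) in GMP, 13 (43.3%, against 48.3%) in CFUE, 10 (33.3%, against 46.9%) in ERY and 22 (73.3%, against 58.1%) in MEP. Tyrobp (DAP12) and Fcer1g, the adaptors through which many of the receptors signal, were called in iMK, CFUMK, MON, NEU, GMP and CMP and in none of LSK, MEP, CFUE, ERY and the lines. GMP against MEP gave 3 of the 30 higher (2.36% of all genes were) and 0 lower (4.33%), and the 3 were genes for ligands of NKG2D at 1 locus with overlapping windows. H60b had 43 and 44 peaks in GMP, against 9 and 10 in MEP (log2 difference 1.79, SE 0.27, adjusted p = 0.000133), Raet1e had 60 and 59, against 10 and 12, and Raet1d had 15 and 14, against 1 and 2. CFUE and ERY against MEP gave 7 lower (8.16% of all genes were) and 1 higher (7.23%). H60b was among the 7, with 3, 1, 0 and 0 in CFUE and ERY (log2 difference -2.38, SE 0.23, adjusted p = 7.08e-08), and Ptpn6, which encodes the phosphatase SHP-1, was the 1 that rose. G1E-ER4+E2 against G1E gave 6 lower (4.95% of all genes were) and 1 higher (11.5%). Tyrobp had 0 and 0 peaks in G1E-ER4+E2, against 3 and 4 in G1E (adjusted p = 1.08e-07), and its neighbour Hcst (DAP10, the adaptor of NKG2D), with an overlapping window, had 0 and 0, against 3 and 3. MON and NEU against GMP gave 2 higher (Syk and Malt1), where 8.59% of all genes were, and 0 lower (7.87%). MON against NEU gave 0 higher (2.99%) and 2 lower (Src and Bcl10), where 4.96% of all genes were. In iMK against CFUMK there were 0 higher (0.00587%) and 0 lower (0.34%), also at an unadjusted p under 0.05 in limma. For the zeros of the other comparisons limma gave 0 at an unadjusted p under 0.05 as well.

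Of 26 genes of the same fold with other names, 20 were tested. In CFUE and ERY against MEP 6 were lower (8.16% of all genes were) and 2 higher (7.23%). Thbd (thrombomodulin) had 4, 1, 1 and 1 peaks in CFUE and ERY, against 9 and 11 in MEP (log2 difference -1.73, SE 0.31, adjusted p = 0.000269), and the activation marker Cd69 had 1, 0, 3 and 3, against 11 and 7 (log2 difference -1.67, SE 0.35, adjusted p = 0.00157). Asgr2, a subunit of the asialoglycoprotein receptor, was higher, with 8, 10, 10 and 12, against 4 and 2 (log2 difference 2.00, SE 0.37, adjusted p = 0.000474). The other comparisons gave at most 2 of the 20 in a direction. In iMK against CFUMK limma gave 0 in either direction, also at an unadjusted p under 0.05.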

How the data were processed

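ATAC-seq reads were trimmed to 30 bases and mapped to mm10 with Bowtie 0.12.8, mitochondrial and unplaced reads were removed, and peaks were called in each library separately (SAMtools, bedtools and HOMER are named in the submitters' processing notes). The deposited lists give intervals of up to 150 bp with an unnamed score, on which the authors sorted each list, and a second unnamed score; scores were used as ranks. Lists held 52720 to 230877 peaks, and the number limits what a short list can show.

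Members and gene lists were chosen with earlier results of these data known. Peaks within 20 kb of a gene (GENCODE vM21) were scaled to 100000 per list, log2-transformed with a prior of 1 peak, and fitted with limma 3.58.1 in R 4.3.3 (12 population means, trend and robust variance, mean of at least 3 peaks), with calls at an adjusted p under 0.05. In data simulated for MON and NEU against GMP (17065 genes), 72% of 4-fold rises, 30.6% of 4-fold falls, 4% of 2-fold rises and 2% of 2-fold falls were found. For CFUE and ERY against MEP (17051 genes) these were 60%, 36%, 2% and 12.5%, with 2 false calls. The simulated counts were Poisson around 1 rate per gene in all libraries, apart from the changed genes. They lack the further spread between real libraries, so these shares do not measure what is found in the real data. Elements were peaks overlapping by 1 bp or more between the 2 libraries. Named genes were up to 6 called members with the largest difference in each direction of a comparison and, for promoters, members listed by role; others named were chosen after their values were seen. Alternatives changed the window, promoter distance and starts, scaling, prior, filter, variance model, list length and libraries, and added a block for library numbers.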

Additional observations from a re-analysis of the deposited data

How the results depend on the processing

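The labels give no replicate numbers, but the library numbers of 7 marrow populations form 2 runs (842 to 848 and 850 to 856), each with every population once. The deviations of libraries of a run were correlated between populations at -0.18 to 0.255, over 0.1 in 6 of 21 pairs, so the runs were not taken as pairing. A replicate block by these runs, chosen after seeing the data, called 8 members in GMP against MEP, 8 in CFUE and ERY against MEP and 0 in iMK against CFUMK, and the members called without the block kept their calls. Members called in the window comparisons changed as follows. For MON and NEU against GMP (5) there were 3 with windows of 5 kb, 8 with 50 kb, 3 with a prior of 0.5 peak, 10 with no filter, 2 at an equal peak number, 0 at an equal number ranked by the second score (an alternative chosen after seeing the data), and 0 to 10 without 1 library. For MON against NEU (3) there were 5 with TMM scaling, 6 with no filter, 1 by the second score and 1 to 6 without 1 library. For GMP against MEP (7) there were 4 with 5 kb and 2 to 3 without 1 library. For CFUE and ERY against MEP (8) there were 5 at an equal number, 4 by the second score and 2 to 10 without 1 library. For iMK against CFUMK (0) there was 1 with no filter, 2 at an equal number, 1 by the second score, 1 with neither trend nor robust variance and 0 to 0 without 1 library. For G1E-ER4+E2 against G1E (12) there were 4 at an equal number, 3 by the second score and 7 to 13 without 1 library. The equal number left 13 members tested and windows of 5 kb left 28. Of the alternatives for called members, 291 kept the call, 99 lost it and 2 reversed: in CFUE and ERY against MEP with 50 kb, Clec2i was at 0.05 and Klrd1 at 0.23 on the log2 scale, neither called. The cause was not tested.

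Promoter calls summed over populations (215) were 125 at an equal peak number and 215 to 224 without 1 library. At an equal number the members called were 9 in LSK, 14 in CMP, 20 in GMP, 5 in MEP, 3 in ERY, 15 in CFUMK, 20 in iMK and 13 in MON. Counting a peak in either library gave 22 in MEP, 11 in CFUE, 12 in ERY and 5 in G1E, and starts of protein-coding transcripts gave 3 in CFUE. With 1 library they were 21 to 30 in LSK, 32 to 34 in CMP, 33 to 37 in GMP, 16 to 18 in MEP, 7 to 10 in CFUE, 9 to 10 in ERY, 32 to 35 in CFUMK, 32 to 36 in iMK, 23 to 23 in MON, 18 to 22 in NEU, and 4 to 4 in each line. The shares of all genes at these settings are not given. These counts therefore show how the member calls depend on the setting, and not how members compare with all genes. Elements (441) were 287 with 5 kb, 207 at an equal number and 443 to 528 without 1 library.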
